A study of Mus musculus with 6 samples.

Results

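DNA replication and S phase genes of mouse were followed in RNA sequencing of 6 libraries. They are 42 genes chosen by symbol from the 43432 genes counted in each library, and all 42 were found. They were tested between 3 libraries labelled Control and 3 labelled FID. 41 of them passed the filter on low counts, and Fen1, a nuclease gene, did not. Every library title carries the tag D3, and the labels spell out neither FID nor D3. The series deals with Igf1 removed from fibro-adipogenic progenitors (FAPs), mesenchymal cells that reside between the fibres of skeletal muscle, and its question is whether these cells depend on the IGF-I they secrete. The protocol in the labels, written once for Control and FID alike, has mice aged 12 to 13 weeks receive tamoxifen, the drug that switches on an inducible Cre, on 5 days in a row (100 ug for each g of weight), and wait at least 1 week before experiments. Males and females entered the study, without a sex for each library. The sources used here name neither the Cre driver nor the alleles or strain. The labels describe frozen muscle and also RNA from primary FAPs, and put skeletal muscle as the source of all 6 libraries. Whether each library is a different animal is not stated, and p-values then measure only the spread among libraries, which may be technical.

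As background, a cell copies its genome once per division, in S phase. In G1 the origin recognition complex, with Cdc6 and Cdt1, loads the ring-shaped MCM helicase onto DNA, a step called licensing. Kinases then recruit Cdc45 and the GINS complex, which turn the ring into an active helicase, and primase, polymerases, the sliding clamp and its loader copy the strands. Transcription of most of these genes is raised by E2F factors when the retinoblastoma protein is phosphorylated, so their mRNA levels are a common readout of how many cells in a tissue are cycling. In injured muscle, FAPs, macrophages, endothelial cells and myoblasts can all divide.

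Gene counts ranged from 5201853 to 10093757 per library, with Control 1 the shallowest. Levels below are CPM, counts scaled to a common library size with TMM factors. The limit set by a count of 0 (3 counts) was 0.593 CPM in Control 1 and 0.293 CPM in Control 3, for counting error only. Igf1, the targeted gene, stood at 134, 60.4 and 106 CPM across Control 1 to 3, against 109, 107 and 81.6 CPM across FID 1 to 3, so the groups overlapped and the gene does not check the labels. A count over the whole gene need not respond to the loss of some exons. Although the labelled source is skeletal muscle, markers of mature fibres were low. The highest level of Ckm, a creatine kinase of muscle, was 1.19 CPM and that of Mb, myoglobin, 1.56 CPM. Acta1, skeletal actin, had the highest mean of the list, at 30.9 CPM in Control 1 and 2.94 to 16.2 CPM in the other libraries. The 11 fibre markers summed to 10.7 to 77.3 CPM in Control, highest in Control 1, and 23.4 to 39.4 CPM in FID. Control 1 stood apart in vessel markers. The 10 endothelial markers summed to 4707 CPM there and to 1326 to 2147 CPM in the other libraries, and the 10 pericyte and smooth muscle markers to 2295 CPM against 744 to 990.4 CPM.

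The RefSeq promoter windows of these genes were searched on both strands for 3 elements of cell cycle promoters. A window runs from 250 bases before to 50 after a start (GRCm38.p6). No library enters this search. The table held 34 of the 42 genes and did not list Gmnn, Mcm4, Gins1, Gins2, Prim2, Pole, Rfc2 and Ccne2. An E2F site, written as TTTCCCGC, TTTCGCGC, TTTGCCGC or TTTGGCGC, was present for 12 of 34 members (35.3%, 95% Wilson interval 21.5 to 52.1%) and for 2.6% of all 27025 genes in the table. Of all 32851 windows, 2.26% held it. A CCAAT box, the element bound by NF-Y, was present for 20 of 34 members (58.8%) against 41.1% of all genes. The CHR element, written TTTGAA or TTCGAA and typical of genes of G2 and mitosis, was present for 5 of 34 members (14.7%) against 21.7% of all genes. Each element was counted by itself, so matches of different elements may overlap, and a match describes the letters only. The stretches below belong to the 6 members with the smallest p in the comparison of FID with Control among those with an E2F site before the start and show what such a site looks like. Capitals mark the E2F site, on either strand, and each stretch reads 5′ to 3′ on the gene's strand. Stretches that meet an annotated exon are cut to 30 bases.
Uhrf1: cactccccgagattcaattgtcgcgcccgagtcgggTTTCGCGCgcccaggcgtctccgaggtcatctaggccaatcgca
Pola1: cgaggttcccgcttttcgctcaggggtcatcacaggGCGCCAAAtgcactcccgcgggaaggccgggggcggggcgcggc
Mcm7: aatttcgaaccGCGGGAAAcagggtgtcca
Mcm5: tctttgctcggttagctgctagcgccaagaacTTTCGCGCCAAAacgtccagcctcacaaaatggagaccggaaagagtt
Orc1: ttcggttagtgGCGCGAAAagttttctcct
Cdc6: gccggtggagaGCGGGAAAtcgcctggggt
The Uhrf1 stretch lies at chr17:56304092-56304171 on the plus strand. The Pola1 stretch lies at chrX:93632250-93632329 on the minus strand. The Mcm7 stretch lies at chr5:138172030-138172059 on the minus strand. The Mcm5 stretch lies at chr8:75109324-75109403 on the plus strand. The Orc1 stretch lies at chr4:108579416-108579445 on the plus strand. The Cdc6 stretch lies at chr11:98908002-98908031 on the plus strand. In Mcm5, which encodes a subunit of the MCM ring, 2 sites on opposite strands overlap in the run in capitals. In Orc1, which encodes the largest subunit of the origin recognition complex, the site ends 19 bases before the RefSeq start. In the other 5 genes it ends between 130 and 177 bases before that start. Gene bounds of the GENCODE annotation differ from these starts. By those bounds the stretches of Uhrf1, Cdc6 and Mcm7 lie inside the gene and that of Orc1 crosses its start. Those of Pola1 and Mcm5 lie before the gene.

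None of the 41 tested members passed the test between the groups in the edgeR fit (quasi-likelihood test, p adjusted by Benjamini-Hochberg). Of 41 members 0 were called at an adjusted p of 0.05, and of all 12881 genes tested 0 were called (0% lower and 0% higher in FID). Adjusted p of the members ranged from 0.290 to 0.998. Also without adjustment, 0 of 41 members had p under 0.05, whereas 9.21% of all tested genes did so toward lower and 9.81% toward higher values in FID. DESeq2 called 0 of the members, against 2.27% of all genes lower and 3.66% higher in FID. In bulk RNA, fewer cycling cells and less RNA per cycling cell cannot be told apart.

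The estimates leaned to lower values in FID. 36 of the 41 members had a log2 fold change (FID over Control) below 0, compared with 52.2% of all tested genes. Their median was -0.14, against -0.02 over all tested genes, and the members ranged from -0.45 for Chaf1a to 0.31 for Gmnn. The groups failed to overlap, with FID lower, in 1 member, Chaf1a, whereas 12.3% of all tested genes showed this. No member was separated with FID higher, against 13.0% of all tested genes. This lean depended on single libraries. Without Control 3, 18 of 41 members were below 0 and the median was 0.02, and without FID 2 the median was -0.02 with 24 of 41 below 0. Without Control 1 the median was -0.35 with 39 of 41 below 0, and without FID 1 it was -0.28.

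**Figure D1:**
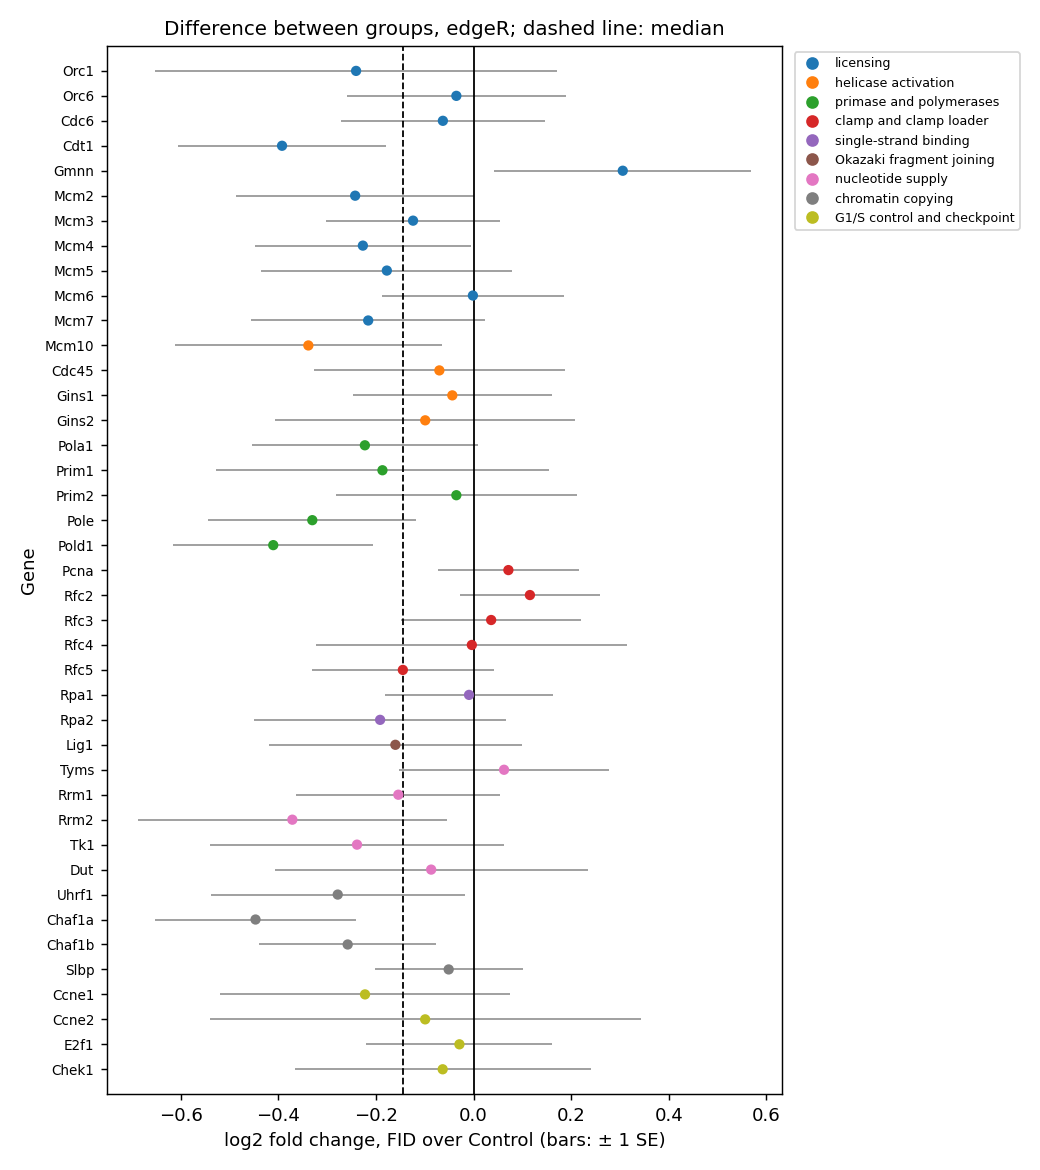
Log2 fold change of FID over Control for the 41 tested replication genes (x axis; points, edgeR estimates; bars, ± 1 SE) with genes on the y axis coloured by role; the dashed line is their median. 36 points lie left of 0, but the bars are wide, and only Gmnn, Pcna, Rfc2, Rfc3 and Tyms lie right of it.

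In the replication genes, libraries within a group differed by more than the groups did, and the genes moved together. The median range over members was 0.71 within Control and 0.48 within FID on the log2(CPM + 1) scale, against a median absolute difference between group means of 0.13. Control 1 was the lowest of the Control libraries in 39 of 41 members, against 39.4% of all tested genes, and Control 3 was the highest in 29 of 41, against 33.5%. Within FID, FID 2 was the lowest in 37 of 41 members, against 33.6% of all tested genes, and FID 1 the highest in 36 of 41, against 36.8%. Both Control 1 and FID 2 were lowest in their group in 36 of 41 members (87.8%) against 19.3% of all tested genes. On the log2(CPM + 1) scale, the median member was 0.65 higher in Control 3 than in Control 1 and 0.47 higher in FID 1 than in FID 2, where the medians over all tested genes were -0.02 and 0.004. The range among the Control libraries exceeded the difference between group means in 39 of 41 members, against 75.8% of all tested genes. These library orders were noticed in the data and are given as a description.

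**Figure D2:**
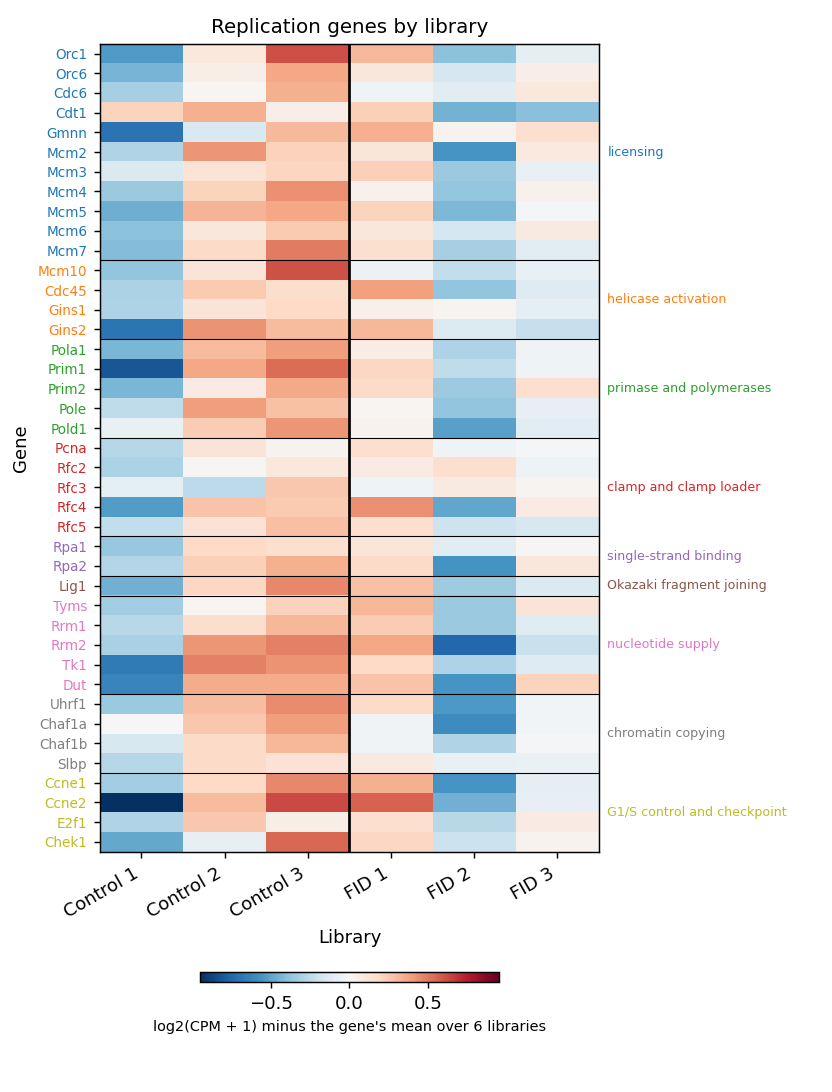
Level of the 41 tested replication genes (rows, coloured by role) in each library (columns), as log2(CPM + 1) minus the gene's mean over the 6 libraries; red is higher and blue lower. The columns of Control 1 and FID 2 are mostly blue and those of Control 2, Control 3 and FID 1 mostly red, so the colours follow libraries rather than the line between the groups.

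Averaged over all 42 members, log2(CPM + 1) was 4.54, 5.12 and 5.22 across Control 1 to 3, against 5.07, 4.59 and 4.88 across FID 1 to 3. Group means were 4.96 ± 0.371 and 4.85 ± 0.241 (SD, n = 3 each). Control 1 and FID 2 lay lowest and Control 3 highest, so the groups overlapped. Their summed level was 1470.5, 2158 and 2285 CPM across Control 1 to 3, against 2109.7, 1536 and 1829 CPM across FID 1 to 3, resting on 7435 counts in Control 1 and 23402 in Control 3.

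Several marker lists differed between the same libraries. The 15 macrophage markers summed to 3735 to 6263 CPM in Control and 8187 to 10838 CPM in FID, and 15 of 15 had a log2 fold change above 0. The 14 FAP markers summed to 43125 to 48496 CPM in Control and 23359 to 33242 CPM in FID, with 12 of 14 below 0. The collagen genes Col1a1 and Col3a1 made up 76.9 to 89.0% of these sums. The other 12 FAP markers summed to 5078 to 5806 CPM in Control and 4562 to 5889 CPM in FID, which overlap. These sums include Ly6a, the gene of the surface marker Sca-1, at 434 to 661.5 CPM in Control and 497 to 2327 CPM in FID. Ly6a lay above 0 (log2 fold change 1.61, SE 0.51, edgeR adjusted p 0.179). Of the 14, 6 were separated with FID lower (Col1a1, Col3a1, Gsn, Mfap5, Cxcl14 and Osr1) and 0 with FID higher. Over all tested genes these shares were 12.3% and 13.0%. Control 1, low in replication genes, was highest in endothelial markers, and Control 3, high in replication genes, was lowest of the Control libraries in macrophage markers, at a mean log2(CPM + 1) of 7.24 against 7.92 and 8.16. Lists of T and NK cells and of B cells summed to at most 12.5 and 4.93 CPM. Cd3e, part of the T cell receptor complex, had 0 counts in each library, and Cd4, the highest of the T and NK list, reached 10.5 CPM. The 10 neutrophil markers summed to 58.7 to 95.998 CPM in Control and 85.4 to 106 CPM in FID, and 5 of 5 tested had a log2 fold change above 0. The list did not move as 1, since Ly6g, Retnlg, Camp, Ngp and Ltf, too low to test, had lower means in FID. Their group means were at most 1.67 CPM in Control and 0.649 CPM in FID, both for Retnlg. Ly6g, the defining one, was at or below 0.195 CPM, whereas Mmp9 and Csf3r, the highest, reached 53.1 and 54.5 CPM. Satellite cell and myoblast markers other than Vcam1, an adhesion molecule also made by stroma, stayed at or below 17.01 CPM. Pax7, the satellite cell factor, was at 5.34 CPM in Control 1 and at 0 in Control 3. The mean log2(CPM + 1) of this list was highest in Control 1, at 3.47, and lay between 1.72 and 2.85 in the other libraries. The part of cell composition, and of the lower depth of Control 1, in the levels of replication genes was not tested.

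**Figure D3:**
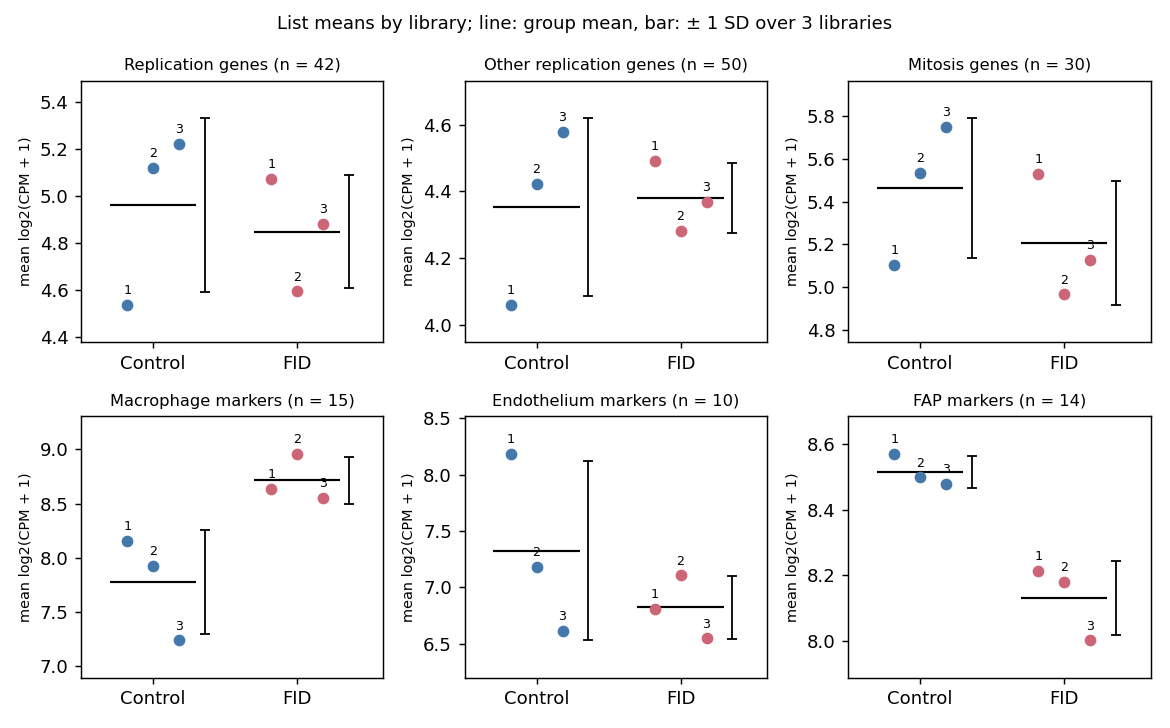
Mean log2(CPM + 1) of 6 gene lists (panels, y axis) in each library (points, numbered by replicate) for Control and FID (x axis); lines are group means and bars ± 1 SD over 3 libraries. In the replication panel Control 1 and FID 2 lie lowest and in the mitosis panel Control 1, FID 2 and FID 3, with FID 1 near Control 2 in both, whereas the macrophage and FAP panels separate the groups.

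Licensing genes include the 6 subunits of the MCM ring, the loaders and their inhibitor. Of the 11, 10 had a log2 fold change below 0, with a median of -0.18. Mcm2, a ring subunit, stood at 48.9, 80.5 and 69.9 CPM across Control 1 to 3, against 64.9, 40.3 and 63.7 CPM across FID 1 to 3. Mcm3 stood at 84.3, 102 and 107 CPM across Control 1 to 3, against 109, 72.6 and 88.2 CPM across FID 1 to 3. Mcm4 stood at 60.1, 89.3 and 105 CPM across Control 1 to 3, against 79.2, 59.4 and 79.2 CPM across FID 1 to 3. In each of these ring genes the lowest Control value came from Control 1, the lowest FID value came from FID 2 and the groups overlapped. Mcm5 stood at 71.99, 125 and 129 CPM across Control 1 to 3, against 116, 74.1 and 98.96 CPM across FID 1 to 3. Mcm6 stood at 103, 146 and 161 CPM across Control 1 to 3, against 146, 121 and 144 CPM across FID 1 to 3. Mcm7, whose introns hold microRNA genes and which overlaps Cops6 and Ap4m1 on the other strand, stood at 52.2, 79.2 and 98.5 CPM across Control 1 to 3, against 77.8, 55.96 and 64.9 CPM across FID 1 to 3. The log2 fold changes of the 6 were -0.24, -0.12, -0.23, -0.18, -0.001 and -0.22 in the order of their numbers, with SE of 0.18 to 0.26, and their edgeR adjusted p ranged from 0.612 to 0.998.

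The loading factors had lower CPM than the ring genes, without regard to gene length. Per kb of exons in Control, Cdt1 (11.2 ± 1.08 CPM, SD) and Mcm2 (9.55 ± 2.31 CPM) did not differ beyond their spread. Per kb of the longest transcript they came to 13.1 and 19.01 CPM. Orc1 stood at 2.18, 3.95 and 6.05 CPM across Control 1 to 3, against 4.73, 2.52 and 3.35 CPM across FID 1 to 3, and Control 3 was the highest library. Orc6, another subunit of the origin complex, ranged from 15.03 to 27.1 CPM in Control and from 18.5 to 22.5 CPM in FID. Cdc6, the ATPase that helps load the ring, ranged from 9.69 to 15.8 CPM in Control and from 11.4 to 13.3 CPM in FID. Cdt1, the loader that is destroyed once S phase begins, stood at 35.4, 38.6 and 31.8 CPM across Control 1 to 3, against 35.7, 22.05 and 22.9 CPM across FID 1 to 3 (log2 fold change -0.39, SE 0.21, edgeR adjusted p 0.351). It was the licensing gene with the lowest estimate, FID 2 and FID 3 lay below every Control library, and it was the member in which Control 3 was the lowest Control library. Gmnn, geminin, the protein that holds Cdt1 inactive after licensing, stood at 9.89, 15.003 and 20.9 CPM across Control 1 to 3, against 21.4, 17.1 and 18.8 CPM across FID 1 to 3 (log2 fold change 0.31, SE 0.26, edgeR adjusted p 0.559). It was the licensing gene with an estimate above 0, with Control 1 the lowest library and Control 3 within the range of FID.

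Genes that activate the helicase overlapped between groups, with 4 of 4 estimates below 0 and a median of -0.08. Mcm10, a scaffold needed to start unwinding, stood at 7.32, 10.7 and 15.4 CPM across Control 1 to 3, against 9.35, 8.19 and 9.29 CPM across FID 1 to 3 (log2 fold change -0.34, SE 0.27, edgeR adjusted p 0.529). Control 3 carried the highest value, and Control 1 lay below every FID library. Cdc45, the helicase cofactor, ranged from 11.9 to 17.8 CPM in Control and from 11.2 to 19.8 CPM in FID. Of the GINS subunit genes, Gins1 ranged from 6.72 to 9.76 CPM in Control and from 7.89 to 8.79 CPM in FID. Gins2 ranged from 13.8 to 31.3 CPM in Control and from 19.7 to 28.96 CPM in FID, and its lowest library was Control 1.

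Primase and polymerase genes had 5 of 5 estimates below 0, with a median of -0.22. Pold1, the catalytic subunit of polymerase delta, which copies the lagging strand, stood at 23.9, 30.01 and 34.2 CPM across Control 1 to 3, against 25.9, 17.3 and 23.3 CPM across FID 1 to 3 (log2 fold change -0.41, SE 0.20, edgeR adjusted p 0.32). Pole, the catalytic subunit of polymerase epsilon on the leading strand, stood at 15.8, 25.1 and 23.04 CPM across Control 1 to 3, against 19.2, 14.3 and 17.8 CPM across FID 1 to 3 (log2 fold change -0.33, SE 0.21, edgeR adjusted p 0.428). Pola1, the catalytic subunit of the polymerase that extends primers, stood at 31.4, 53.1 and 56.6 CPM across Control 1 to 3, against 45.1, 34.8 and 41.8 CPM across FID 1 to 3 (log2 fold change -0.22, SE 0.23, edgeR adjusted p 0.634). In all of these Control 2 and Control 3 exceeded every FID library. Control 1 fell inside the FID range for Pold1 and Pole and below it for Pola1. Of the primase subunit genes, Prim1 ranged from 8.70 to 23.6 CPM in Control and from 13.4 to 18.6 CPM in FID. Prim2 ranged from 16.6 to 29.6 CPM in Control and from 17.7 to 25.9 CPM in FID.

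The sliding clamp and its loader lay on both sides of 0, with 3 of 5 estimates above 0 and a median of 0.04. Pcna, the clamp that tethers polymerases to DNA, stood at 179.6, 236 and 221 CPM across Control 1 to 3, against 242, 212 and 216 CPM across FID 1 to 3 (log2 fold change 0.07, SE 0.15, edgeR adjusted p 0.822). Control 1 was the lowest library and the other 5 lay between 212 and 242 CPM. The loader subunit Rfc2 ranged from 43.1 to 57.2 CPM in Control and from 51.4 to 59.6 CPM in FID. Rfc3 ranged from 11.4 to 16.5 CPM in Control and from 13.3 to 14.6 CPM in FID. For Rfc4 and Rfc5, also loader subunits, the levels were 7.71 to 14.2 CPM in Control with 7.98 to 16.001 CPM in FID and 24.1 to 35.1 CPM in Control with 24.8 to 32.1 CPM in FID. Whether this role group differs from the other members was not tested.

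Genes that protect and join new DNA were measured unevenly. Rpa1, a subunit of the protein that coats unwound DNA, ranged from 80.1 to 118 CPM in Control and from 95.8 to 112 CPM in FID. Its partner Rpa2 ranged from 16.8 to 26.3 CPM in Control and from 13.5 to 23.6 CPM in FID. Lig1, the ligase that joins Okazaki fragments, ranged from 54.8 to 104 CPM in Control and from 59.6 to 92.1 CPM in FID. Fen1, the nuclease that trims these fragments, had 1, 25 and 5 counts in Control 1, 2 and 3 and 4, 1 and 7 counts in FID 1, 2 and 3, too few to test. The gene (chromosome 19, 10199132 to 10204169, minus strand) overlaps Tmem258 and Gm10143 on the opposite strand. The count files set aside reads that fall on more than 1 gene, and the part of this overlap in the low count was not tested.

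Nucleotide supply genes had 4 of 5 estimates below 0, with a median of -0.15. Rrm2, the regulated subunit of ribonucleotide reductase, which makes deoxynucleotides, stood at 50.4, 83.8 and 87.4 CPM across Control 1 to 3, against 81.1, 36.9 and 54.02 CPM across FID 1 to 3 (log2 fold change -0.37, SE 0.32, edgeR adjusted p 0.555). Values of FID 1 and Control 2 were close, and FID 2 was the lowest library. Its partner Rrm1 ranged from 115 to 172 CPM in Control and from 108 to 163 CPM in FID. Tk1, the thymidine kinase of S phase, ranged from 29.3 to 66.1 CPM in Control and from 38.4 to 53.98 CPM in FID. Tyms, thymidylate synthase, ranged from 34.2 to 50.5 CPM in Control and from 33.7 to 53.98 CPM in FID. Dut, which removes dUTP, ranged from 24.7 to 49.9 CPM in Control and from 26.04 to 46.9 CPM in FID. In these 4 genes FID 2 was the lowest FID library.

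Genes that copy chromatin had 4 of 4 estimates below 0 and the lowest median of the role groups, at -0.27. Chaf1a, the large subunit of the chromatin assembly factor that places histones behind the fork, stood at 22.5, 26.96 and 29.8 CPM across Control 1 to 3, against 21.9, 14.5 and 22.04 CPM across FID 1 to 3. The groups did not overlap, with Control 1 just above FID 3, and the estimate was -0.45 (SE 0.21, p 0.0648, edgeR adjusted p 0.290). With total gene counts in place of TMM factors the groups overlapped. Chaf1b, its partner, stood at 14.04, 17.9 and 19.8 CPM across Control 1 to 3, against 15.3, 12.7 and 15.6 CPM across FID 1 to 3 (log2 fold change -0.26, SE 0.18, edgeR adjusted p 0.468). Uhrf1, which recruits the maintenance DNA methyltransferase to new DNA, stood at 38.4, 60.7 and 67.7 CPM across Control 1 to 3, against 56.2, 33.5 and 48.4 CPM across FID 1 to 3 (log2 fold change -0.28, SE 0.26, edgeR adjusted p 0.594). In both genes Control 1 lay inside the FID range. Slbp, which binds histone mRNA, ranged from 45.5 to 62.4 CPM in Control and from 52.3 to 58.3 CPM in FID.

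Genes of G1/S control and the checkpoint had 4 of 4 estimates below 0, with a median of -0.08. E2f1, the transcription factor of this programme, ranged from 24.9 to 36.7 CPM in Control and from 25.4 to 34.4 CPM in FID. Ccne1, one of the cyclin E genes, ranged from 12.1 to 21.6 CPM in Control and from 10.2 to 19.8 CPM in FID. Ccne2, the other, ranged from 5.14 to 17.3 CPM in Control and from 7.66 to 16.5 CPM in FID. For Ccne2, Control 1 was the lowest library and Control 3 the highest. Chek1, the kinase of the replication checkpoint, ranged from 5.93 to 13.2 CPM in Control and from 7.45 to 10.1 CPM in FID.

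Divided by exon length (CPM per kb over the union of exons), levels of the members differed far more than the groups did. Pcna was highest, at 88.5 ± 12.2 CPM per kb for Control and 93.02 ± 6.86 for FID (SD, n = 3 each). Next in Control came Mcm6 at 29.3 ± 6.43, Mcm5 at 27.2 ± 7.97, Rrm2 at 26.7 ± 7.36, Mcm3 at 26.04 ± 3.19 and Mcm4 at 23.6 ± 6.32 CPM per kb, neighbours in that order that did not differ beyond their spread. Mcm7 stood at 17.3 ± 5.25 and Mcm2 at 9.55 ± 2.31 CPM per kb. With the longest transcript as the length, Mcm7 and Mcm2 came to 25.9 and 19.01 CPM per kb, so their distance from the other ring genes depended on the length used. The lowest tested members in Control were Orc1 at 1.17 ± 0.558, Mcm10 at 1.45 ± 0.529 and Pole at 1.91 ± 0.438 CPM per kb, with FID values of 1.02 ± 0.321, 1.16 ± 0.0851 and 1.53 ± 0.226. With the longest transcript, Chek1 took the place of Pole among the 3 lowest.

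Beyond the members, 50 other replication genes were split evenly, with 26 below and 24 above 0 and a median of -0.01. Control 1 was the lowest Control library in 40 of 50 and FID 2 the lowest FID library in 26 of 50. Of these genes 0 passed the adjusted edgeR test. The groups did not overlap in 6 of 50 with FID higher and in 2 of 50 with FID lower. Over all tested genes these shares were 13.0% and 12.3%, so separation was no more common in this list. With unadjusted p under 0.05, 1 of 50 was lower in FID and 3 were higher, against 9.21% and 9.81% of all tested genes. Without Control 1 this held for 5 of 50 toward lower values, against 8.66% of all genes. Without Control 3 it held for 5 of 50 toward higher values, against 9.94%. The genes with the smallest p, Dck and Samhd1, act on nucleotide pools. Dck, the kinase that salvages deoxynucleosides, stood at 35.6, 34.3 and 36.5 CPM across Control 1 to 3, against 59.3, 113 and 108 CPM across FID 1 to 3, and every FID library lay above every Control library (log2 fold change 1.40, SE 0.24, edgeR adjusted p 0.122, DESeq2 adjusted p 1.18e-04). Samhd1, which breaks down deoxynucleotides and is abundant in myeloid cells, stood at 220.1, 156 and 189.8 CPM across Control 1 to 3, against 231, 671 and 466 CPM across FID 1 to 3, again without overlap (log2 fold change 1.27, SE 0.36, edgeR adjusted p 0.158, DESeq2 adjusted p 0.0167). Without FID 1, edgeR called both higher (adjusted p 0.0137 for Dck and 0.0304 for Samhd1), against 2.15% of all genes higher in that fit. FID 1 lay close to Control in Samhd1, and macrophage markers were higher in FID as given above; their part in these differences was not tested. Pold3, an accessory subunit of polymerase delta, was separated with FID higher (log2 fold change 0.40, SE 0.15, edgeR adjusted p 0.212), and Dnmt1, the maintenance DNA methyltransferase, with FID lower (log2 fold change -0.31, SE 0.13, edgeR adjusted p 0.253).

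Of 32 G1/S regulators 30 were tested, 19 of them below and 11 above 0, with a median of -0.13. Here 4 of 30 had unadjusted p under 0.05, all with FID lower, against 9.21% of all tested genes. Without FID 3 the number was 2 of 32, against 548 of all 13153 genes. With all libraries 0 passed the adjusted edgeR test. DESeq2 called 1 of 30 lower in FID, Myc, against 2.27% of all genes. The groups did not overlap, with FID lower, in 6 of 30, against 12.3% of all tested genes. Myc, the growth-linked transcription factor, stood at 371, 369 and 328 CPM across Control 1 to 3, against 257, 236 and 194 CPM across FID 1 to 3, without overlap (log2 fold change -0.64, SE 0.15, edgeR adjusted p 0.136, DESeq2 adjusted p 0.00832). E2f7, a repressor of the E2F family, and the activator E2f3 had estimates of -0.85 (SE 0.26) and -0.41 (SE 0.13), with edgeR adjusted p of 0.169 and 0.179. Tfdp2, a dimer partner of E2F factors, had -0.54 (SE 0.21) with an edgeR adjusted p of 0.232.

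Mitosis genes shared the order of the replication genes with a lower median. Of 30 genes, 29 were below 0 and the median was -0.22. Here 3 of 30 had unadjusted p under 0.05, all with FID lower, against 9.21% of all tested genes. Of the 30, 0 passed the adjusted edgeR test. DESeq2 called 2 of 30 lower in FID, Foxm1 and Mki67, against 2.27% of all genes. The groups did not overlap, with FID lower, in 3 of 30, against 12.3% of all tested genes. Control 1 was the lowest Control library in 26 of 30 and FID 1 the highest FID library in 30 of 30. Foxm1, the factor that drives mitotic genes, stood at 42.5, 41.7 and 47.6 CPM across Control 1 to 3, against 34.5, 24.3 and 25.9 CPM across FID 1 to 3 without overlap (log2 fold change -0.64, SE 0.17, edgeR adjusted p 0.141, DESeq2 adjusted p 0.037). Cenpe, a kinetochore motor, and Cenpa, the centromeric histone, had estimates of -0.75 (SE 0.24) and -0.38 (SE 0.19), with edgeR adjusted p of 0.179 and 0.326. These counts depended on single libraries. Mitosis genes with unadjusted p under 0.05 and FID lower numbered 11 of 30 without Control 1 and 6 of 30 without FID 1. Of all genes, 8.66% and 8.57% did so in these fits. Without FID 2 the number was 1, against 626 of all 13069 genes, and without FID 3 it was 1, against 548 of all 13153. Without FID 1, edgeR called 2 of 30, Mki67 and Cenpe (adjusted p 0.0343 each), against 0.578% of all genes lower in that fit. Whether mitosis and replication genes differ in their lean was not tested.

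**Figure D4:**
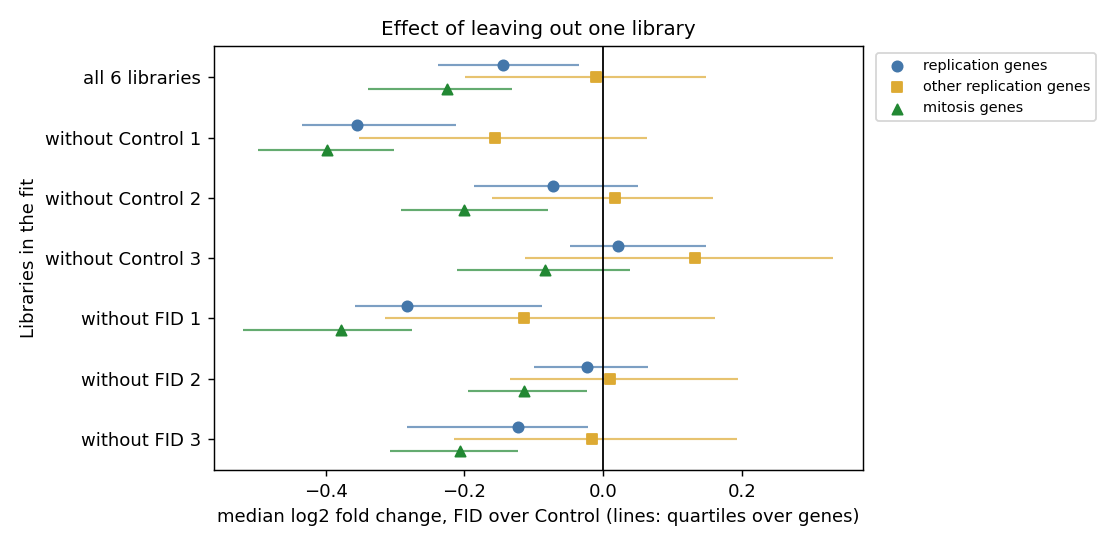
Median log2 fold change of FID over Control (x axis; lines, quartiles over genes) for replication genes, other replication genes and mitosis genes, with all 6 libraries and with each library left out (y axis). The median of the replication genes runs from -0.35 without Control 1 to 0.02 without Control 3.

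With Control 1 left out, more replication genes separated the groups, but none was called. Control 1 was the lowest Control library in 39 of 41 members, so leaving it out had to raise their Control mean. The counts without it follow in part from that order and are no separate sign of lower values in FID. 9 of 41 members then had unadjusted p under 0.05 with FID lower, against 8.66% of all genes tested in that fit, and 20 of 41 had no overlap with FID lower, against 19.6%. These 9 were Chaf1a, Pola1, Pole, Mcm4, Prim1, Tk1, Mcm10, Mcm7 and Pold1, with estimates of -0.42 to -0.55, and the smallest edgeR adjusted p was 0.154, for Tk1. Without Control 3, 1 of 41 members, Gmnn, had unadjusted p under 0.05 with FID higher, a smaller share than the 9.94% of all genes tested in that fit (log2 fold change 0.62, edgeR adjusted p 0.208). Without FID 1, 1 of 41, Cdt1, had unadjusted p under 0.05 with FID lower, again a smaller share than the 8.57% of all genes (log2 fold change -0.63, edgeR adjusted p 0.106).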

How the data were processed

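RNA of 3 Control and 3 FID libraries was sequenced, per the labels' protocols after a directional preparation with 1000 ng of input and an integrity number over 5.6. The authors deposited 1 table per library with unnormalized whole-number counts of each gene. The submitters' processing notes name mm10 as build and list Bowtie2 2.5.4, cutadapt, DESeq2, HTSeq, SAMtools and STAR, with no roles. The sources used here give no annotation release or strand setting, so reads of a gene and of its antisense partner may not be separated. Reads assigned to no single gene (9.60 to 10.9% of a file) were left out, so overlapping genes can be undercounted. Gene names, coordinates and exon lengths came from GENCODE M21 (42462 of 43432 identifiers matched). Counts were filtered with filterByExpr (minimum count 10, minimum total 15), scaled by TMM and fitted on 12881 genes with edgeR 4.0.16 (quasi-likelihood, two-sided, group as the term, Benjamini-Hochberg over all genes). The SE was taken as log2 fold change over the square root of F. DESeq2 1.42.0, limma 3.58.1, other scalings and filters, a replicate block and leaving out each library were alternatives. The code was tested on simulated data. Libraries of a group differed beyond sampling noise in each pair (chi-square over its degrees of freedom 14.1 to 46.0). Members and gene lists were chosen with earlier results of these data known. Genes given library by library are the 12 members with the smallest p, the 3 highest and 3 lowest per kb, the MCM ring genes and Pcna, and from each other list up to 4 genes with the smallest p, some by estimate only; library orders, Top2a, Cdkn1a and Cdkn1b were picked after their values were seen. Other members are given by range. Promoter windows came from RefSeq (GRCm38.p6).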

Additional observations from a re-analysis of the deposited data

How the results depend on the processing

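None of the 42 members was called under any alternative run. Of the 50 other replication genes, DESeq2 called Dck and Samhd1 higher in FID, against 3.66% of all genes. With no filter on low counts edgeR called Dck higher (adjusted p 0.0150), against 218 of all 21380 genes. Without FID 1 edgeR called both higher, against 2.15% of all genes. DESeq2 called Myc of the G1/S regulators and Foxm1 and Mki67 of the mitosis genes lower in FID, against 2.27% of all genes. The median log2 fold change of the members was -0.15 with DESeq2 and limma-voom, -0.13 with total gene counts or with no filter on low counts, and ranged from -0.354 without Control 1 to 0.022 without Control 3. The number below 0 ranged from 18 (without Control 3) to 39 (without Control 1). Members with unadjusted p under 0.05 were 0 with all libraries, 1 with limma-voom and 0 to 9 with 1 library left out. Members whose groups did not overlap were 1 with all libraries, 0 with total gene counts, 0 with no filter on low counts, and 1 to 20 with 1 library left out. Over all genes 0 were called by edgeR, 764 by DESeq2, 269 with no filter on low counts, and 0 to 359 with 1 library left out (3 without Control 1, 359 without FID 1). With 1 library left out the medians ranged from -0.156 to 0.133 for other replication genes, from -0.183 to -0.078 for G1/S regulators and from -0.397 to -0.084 for mitosis genes. The title numbers are shared by the groups but nothing says that they pair libraries, and deviations of same-numbered libraries correlated at -0.013, -0.32 and 0.343. With the replicate block the median of the members was -0.137 and 0 were called. Of 390 refits of the log2 fold change of named genes, 369 kept direction and side of the threshold. Mcm6 turned positive with limma-voom (0.017), total gene counts (0.017), no filter (0.021) and the replicate block (0.018), and ranged from -0.168 to 0.149 with 1 library left out. The ranges were -0.506 to 0.177 for Orc1, -0.268 to 0.009 for Mcm3, -0.426 to 0.0226 for Mcm7 and -0.0367 to 0.162 for Pcna. An E2F site with 1 of the first 3 bases free was present for 76.5% of members and 23.3% of all genes. The causes of these shifts were not tested. Depth limits the scarcest members most: Orc1 rested on 11 to 62 counts per library.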

Other observations

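Some cell cycle genes did not follow the library order of the replication genes, and are given here as values chosen after they were seen. Mki67, the common marker of cycling cells, stood at 121, 73.3 and 102 CPM across Control 1 to 3, against 71.9, 30.6 and 30.6 CPM across FID 1 to 3. Control 1 was thus the highest library in Mki67, although it was the lowest Control library in 26 of 30 mitosis genes, and Mki67 was the mitosis gene in which Control 1 was highest among Control. Top2a, a topoisomerase of dividing cells often read beside it, stood at 137, 205 and 232 CPM across Control 1 to 3, against 191, 117 and 144 CPM across FID 1 to 3. Unlike Mki67, Top2a followed the order of the replication genes in both groups. The groups did not overlap in Mki67 (log2 fold change -1.15, SE 0.37, edgeR adjusted p 0.179, DESeq2 adjusted p 0.0412) and overlapped in Top2a (log2 fold change -0.35, SE 0.25, edgeR adjusted p 0.476).

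Cdkn1a, the p53 target p21 that inhibits cyclin-dependent kinases, had the reverse of the order of the replication genes in both groups, at 394, 312 and 214 CPM across Control 1 to 3, against 296, 431 and 367 CPM across FID 1 to 3 (log2 fold change 0.25, SE 0.24, edgeR adjusted p 0.609). The order of the members' mean, Control 3 above 2 above 1 and FID 1 above 3 above 2, was seen in 23 of 41 members and in 6.47% of all tested genes. The full reverse was seen in 0 of 41 members, in 3 of 30 G1/S regulators (Cdkn1a, Cdkn1b and Ccnd3) and in 7.06% of all tested genes. Cdkn1b, the inhibitor p27, stood at 88.6, 52.3 and 51.7 CPM across Control 1 to 3, against 49.8, 53.3 and 50.99 CPM across FID 1 to 3.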
